A study of Homo sapiens with 6 samples.

Results

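NRF2, encoded by NFE2L2, is the transcription factor that switches on genes of the antioxidant and detoxifying response, and heme oxygenase, which opens the heme ring, is among the best known products of that response. The 10 genes described here are NFE2L2, its inhibitor KEAP1, its competitor BACH1, the heme oxygenases HMOX1 and HMOX2, and the target genes NQO1, SRXN1, GCLC, GCLM and SLC7A11. They were picked by name, each carried by the brightest probe set that the platform annotation gives to that symbol alone, out of 18404 genes on the array, and they were picked with the contrast below already known, so their values, with the standard errors and 95% intervals of the fit as a measure of precision, are given as a description with no test. All 10 were found, and each had 1 probe set. RNA came from H661 cells, which derive from a large cell carcinoma of the lung, grown in RPMI medium with fetal bovine serum. The SALL4-sh group (3 arrays) had been transduced with a lentiviral hairpin against SALL4, and the Scr-sh group (3 arrays) with a scrambled hairpin. A single hairpin stands for each condition, and the sources used here do not tell whether replicates were separate cultures, so every error and p-value below measures only how these samples differ, and that spread may be technical.

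In unstressed cells KEAP1 holds NRF2 in the cytoplasm and presents it to the ubiquitin ligase built on CUL3, which keeps NRF2 short-lived. Oxidants and electrophiles modify KEAP1, and NRF2 then enters the nucleus and binds antioxidant response elements together with small MAF proteins. BACH1 occupies the same elements as a repressor until heme binds it and drives it off, and HMOX1 is the target gene on which BACH1 is known to weigh most. The RNA of NFE2L2 need not follow the amount of NRF2 protein, which was not measured on these arrays.

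The values are normalized intensities on a linear scale, on which 8 is the lowest value given, and none of the 60 values of the 10 genes stood at this floor. SALL4 itself averaged 30.7 ± 3.72 in SALL4-sh and 120 ± 13.8 in Scr-sh (SD, n = 3 each; adjusted p = 0.00388 from limma). Of 9 interferon-stimulated genes above the floor 6 were lower in SALL4-sh, and their summed intensity was 130, 200 and 149 in SALL4-sh, against 1360, 2854 and 1257 in Scr-sh, so that Scr-sh replicate 2 stood apart. Of 8 epithelial markers, EPCAM was bright on every array, and KRT8 and NAPSA lay at or near the floor. CDH1 alone passed the test (higher in SALL4-sh), but it was weak too. It had 17.2, 16.1 and 17.3 in SALL4-sh, against 10.5, 8 and 8.68 in Scr-sh. KRT7, KRT19 and NKX2-1 were also weak. The summed epithelial level was 949 to 1225 in SALL4-sh and 700 to 1037 in Scr-sh. Most of this sum was EPCAM, which overlapped between the groups (adjusted p = 0.245 from limma). Of 7 leukocyte markers 4 (PTPRC, CD3E, LYZ and LCP1) were at the floor on each of the 6 arrays, and none of the list passed. Of 5 fibroblast markers above the floor, COL1A1 and COL1A2 were lower in SALL4-sh. COL3A1 overlapped between the groups, with a log2 difference of 0.24 in the other direction. PDGFRB and LUM lay at or near the floor and overlapped too, and DCN stood at the floor throughout. The sums of the list were 276 to 343 in SALL4-sh and 359 to 442 in Scr-sh. The part of these shifts in the results below was not tested. All 6 arrays are of the H661 line, so the markers describe these cells and not shares of cell types in a tissue. A change in every cell cannot be told apart from a change in some of the cells.

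Of the 10 genes, HMOX1 and SRXN1 were higher and NFE2L2 and SLC7A11 were lower on every SALL4-sh array than on every Scr-sh array. The other 6 overlapped between the groups. Over all 14511 genes above the floor on at least 1 array, the groups were apart for 27.5% (15.0% higher and 12.5% lower in SALL4-sh). Because the genes were chosen with this contrast in view, nothing is read from these counts. The median log2 difference of the 10 genes was -0.01, and that of all genes 0.01.

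**Figure D1:**
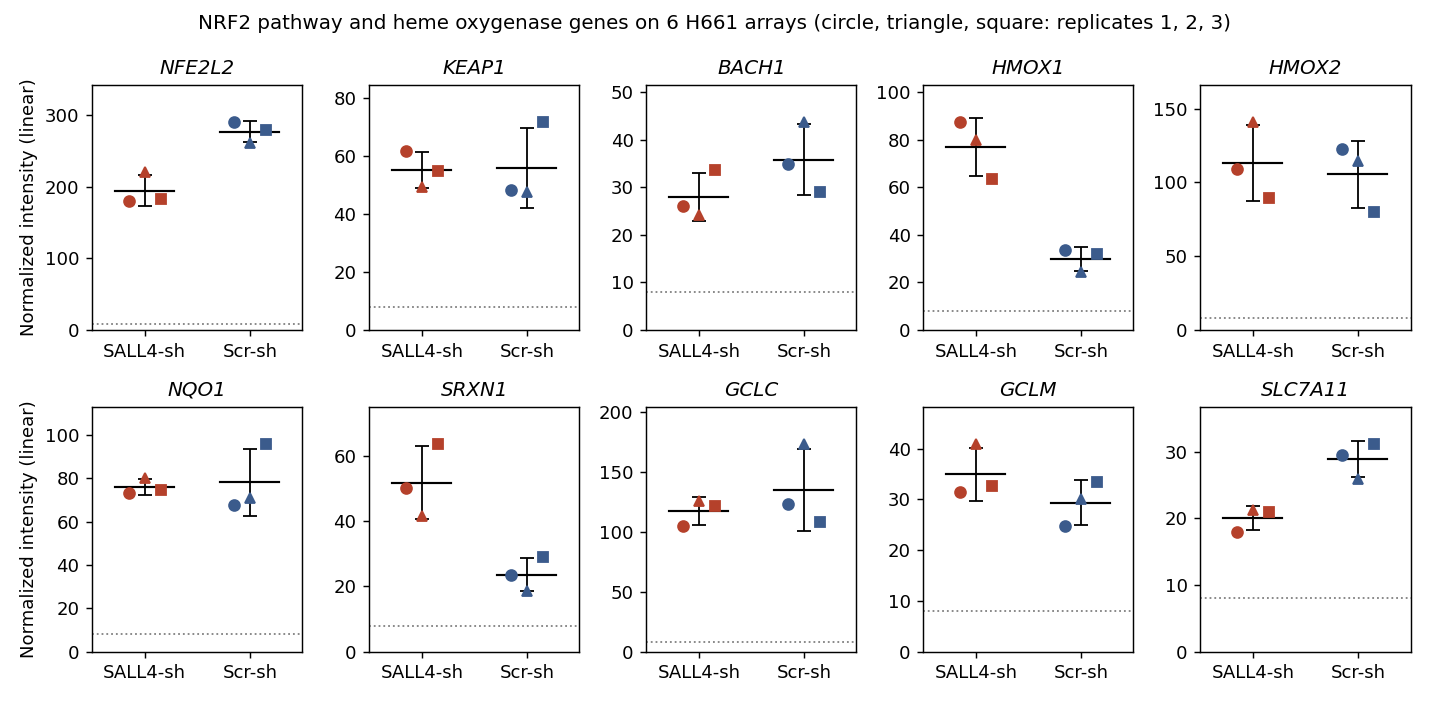
Normalized intensity (linear scale, starting at 0) of each of the 10 genes on the 6 H661 arrays, with SALL4-sh left of Scr-sh in every panel. Each symbol is 1 array, bars with whiskers give mean and SD (n = 3), and dots trace the floor at 8. The groups are apart for NFE2L2 (194.7 against 277 on average), HMOX1 (76.9 against 30.1), SRXN1 (51.7 against 23.6) and SLC7A11 (20.0 against 28.8), and overlap for the other 6 genes.

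NFE2L2 had intensities of 180, 220 and 184 in SALL4-sh, against 290.2, 262 and 279 in Scr-sh. The highest SALL4-sh value lay below the lowest Scr-sh value, by a factor of 1.19. On average the level in SALL4-sh was 29.8% lower, a log2 difference of -0.51 (standard error 0.12). The spread within a group was narrow for this gene, with a pooled SD of 0.12 on the log2 scale, the smallest of the 10. Across all genes tested, 21.1% had a larger difference in either direction.

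KEAP1, the adaptor that hands NRF2 to its ligase, had 61.8, 49.2 and 54.8 in SALL4-sh, against 48.4, 47.6 and 71.7 in Scr-sh. The SALL4-sh values lay inside the range of the Scr-sh values, whose top came from replicate 3. The ratio of the groups was 1.00 with a 95% interval of 0.725 to 1.39.

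BACH1, the repressor that competes with NRF2, had 26.1, 24.2 and 33.7 in SALL4-sh and 34.9, 43.7 and 28.9 in Scr-sh. Both SALL4-sh replicates 1 and 2 lay below every Scr-sh array, and replicate 3 lay between them. The log2 difference was -0.35 (standard error 0.20), and the ratio of 0.785 had an interval of 0.561 to 1.10.

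HMOX1 encodes the inducible heme oxygenase, which breaks heme down into biliverdin, carbon monoxide and iron. It had 87.4, 79.8 and 63.4 in SALL4-sh, against 33.8, 24.3 and 32.1 in Scr-sh. The lowest SALL4-sh value was 1.88 times the highest Scr-sh value. HMOX1 averaged 76.9 ± 12.2 in SALL4-sh and 30.1 ± 5.06 in Scr-sh (SD, n = 3 each), a ratio of 2.56 with a 95% interval of 1.88 to 3.49, and a log2 difference of 1.36 (standard error 0.18). This was the largest difference among the 10 genes, and 1.96% of all genes tested had a larger one.

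HMOX2 encodes the constitutive heme oxygenase, which carries out the same reaction and is not known for induction by NRF2. Its values were 109, 141 and 89.6 in SALL4-sh and 123, 114 and 79.9 in Scr-sh. The groups overlapped almost fully, and in each of them replicate 3 was the lowest. The log2 difference was 0.10 (standard error 0.23), with a ratio of 1.07 and an interval of 0.725 to 1.58.

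SRXN1 encodes sulfiredoxin, which returns overoxidised peroxiredoxins to their active form. It had 50.04, 41.4 and 63.6 in SALL4-sh, against 23.4, 18.7 and 28.9 in Scr-sh. The groups were apart, and the closest pair of arrays differed by a factor of 1.44. The averages were 51.7 ± 11.2 in SALL4-sh and 23.6 ± 5.11 in Scr-sh (SD, n = 3 each), a ratio of 2.19 (95% interval 1.51 to 3.18) and a log2 difference of 1.13 (standard error 0.22). A larger difference was seen in 3.81% of all genes tested. Within each group replicate 3 was the highest and replicate 2 the lowest, an order that HMOX1 did not share.

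NQO1 encodes a quinone reductase that is widely used as a readout of NRF2 activity. It had 73.3, 80.2 and 74.3 in SALL4-sh and 67.7, 70.9 and 95.7 in Scr-sh. The SALL4-sh values were close together and fell within the Scr-sh range, which was set by replicate 3. The log2 difference was -0.02 (standard error 0.16), and the interval of the ratio was 0.755 to 1.28.

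GCLC and GCLM encode the catalytic and the modifier subunit of glutamate-cysteine ligase, the enzyme that sets the rate of glutathione synthesis. GCLC had 105, 126 and 122 in SALL4-sh and 123, 173 and 108 in Scr-sh, with Scr-sh replicate 2 above all other arrays. GCLM had 31.4, 40.9 and 32.6 in SALL4-sh and 24.7, 30.0 and 33.4 in Scr-sh, with SALL4-sh replicate 2 above all others. The groups overlapped for both subunits. The log2 difference was -0.17 (standard error 0.20) for GCLC and 0.25 (standard error 0.17) for GCLM. The 95% interval of the ratio ran between 0.637 and 1.23 for GCLC and between 0.901 and 1.57 for GCLM.

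SLC7A11 encodes the cystine carrier of the exchanger that feeds cysteine into glutathione synthesis, and it is known as a target of ATF4 as well as of NRF2. It had 17.9, 21.3 and 20.9 in SALL4-sh, against 29.5, 25.9 and 31.1 in Scr-sh. No SALL4-sh array reached the lowest Scr-sh value, which was 1.22 times the highest SALL4-sh value. The mean was 20.0 ± 1.84 in SALL4-sh and 28.8 ± 2.70 in Scr-sh (SD, n = 3 each), a ratio of 0.695 (95% interval 0.561 to 0.861) and a log2 difference of -0.53 (standard error 0.13). These are weak signals, no more than 4 times the floor. The Scr-sh values of SRXN1 (18.7 to 28.9) and HMOX1 (24.3 to 33.8) were of the same order. Among the target genes and the heme oxygenases, HMOX1 and SRXN1 were thus higher, SLC7A11 was lower, and HMOX2, NQO1, GCLC and GCLM overlapped.

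**Figure D2:**
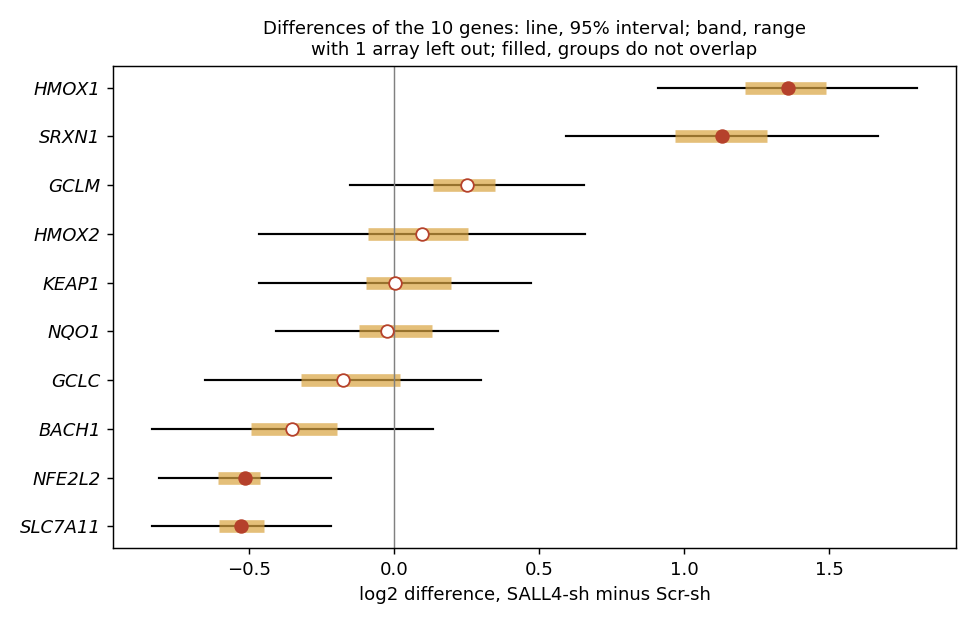
Log2 difference, SALL4-sh minus Scr-sh, of the 10 genes in order of size. Black lines are 95% intervals of the fit (3 arrays per group), yellow bands are the range when 1 of the 6 arrays was left out, and filled points mark genes whose groups do not overlap. HMOX1 (1.36) and SRXN1 (1.13) lie right of 0 over their whole bands, and NFE2L2 (-0.51) and SLC7A11 (-0.53) left of it. Their groups do not overlap, so leaving out 1 array could not bring these bands across 0. The bands of HMOX2, KEAP1, NQO1 and GCLC cross 0.

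Scr-sh replicate 2 had the highest interferon-stimulated genes. Without it, the log2 difference was 1.21 for HMOX1, 0.97 for SRXN1, -0.55 for NFE2L2 and -0.60 for SLC7A11. This does not remove the interferon difference between the groups. Scr-sh replicates 1 and 3, with sums of 1360 and 1257, also stood far above the SALL4-sh arrays (130, 200 and 149). With any 1 array left out, HMOX1 ran between 1.21 and 1.49, SRXN1 between 0.97 and 1.29, NFE2L2 between -0.61 and -0.46, and SLC7A11 between -0.60 and -0.45. For these genes, whose groups do not overlap, the sign could not change. The sign of HMOX2, KEAP1, NQO1 and GCLC changed when some single array was left out, and that of BACH1 and GCLM did not.

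The promoters of the genes were searched for the core of the antioxidant response element, TGACNNNGC, on both strands of windows that run 250 bases upstream and 50 bases downstream of annotated starts (RefSeq, GRCh38.p14). Windows were listed for 8 of the 10 genes, 13 windows in all, and not for HMOX1 and SLC7A11. The core occurred in 2 of the 13 windows, 1 of GCLM and 1 of the pair of KEAP1, and in 13.3% of all 35116 windows. The share among these 13 windows was close to that over all windows. Counted by gene, the core occurred in 2 of 8 genes, and in 16.1% of all 27305 genes. Nothing about these genes is read from such small counts. The sites are shown because the core is the element that NRF2 binds, with its letters in capitals (where it reads GCTTAGTCA, the element lies on the opposite strand).
GCLM, chr1:93909446-93909474, minus strand: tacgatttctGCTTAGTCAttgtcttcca
KEAP1, chr19:10502807-10502835, minus strand: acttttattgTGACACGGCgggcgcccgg
KEAP1, chr19:10502784-10502812, minus strand: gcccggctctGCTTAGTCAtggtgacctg
On the opposite strand, the GCLM site and the second KEAP1 site read TGACTAAGC, the same 9 bases. These cores begin 34 bases upstream of the start in GCLM and 54 and 31 bases upstream in KEAP1. AP-1 factors bind the related element TGANTCA, which occurred in 1 of the 13 windows, that of BACH1 (chr21:29298864-29298890, plus strand, gcggaaggagTGAGTCAcctgaccgct), and in 7.7% of all windows. A match is a stretch of letters and not a measured binding site, and a window without a match says nothing of sites elsewhere.

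Further genes around the pathway were taken whole from lists by function, none of them one of the 10, and were tested in the fit over all genes, of which 8.57% passed an adjusted p of 0.05 (4.36% higher and 4.20% lower). Of 18 regulators and partners of NRF2, CUL3 was higher, none was lower, and the other 17 did not pass (5.56% called, against 8.57% of all genes). CUL3, the scaffold of the ligase that KEAP1 serves, had 274, 277 and 293 in SALL4-sh, against 157, 181 and 178 in Scr-sh. Its log2 difference was 0.71 (standard error 0.11, adjusted p = 0.0160 from limma). Without any 1 of the SALL4-sh arrays or without Scr-sh replicate 3 it no longer passed (adjusted p up to 0.0682 from limma). The median log2 difference of the list was -0.03.

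Of 21 other NRF2 target genes above the floor, TXN was lower, none was higher and 20 did not pass (4.76% called, against 8.57% of all genes). TXN, the cytosolic thioredoxin that reduces disulfides in proteins, had 91.5, 70.4 and 88.2 in SALL4-sh, against 429, 545 and 459.8 in Scr-sh, a log2 difference of -2.52 (standard error 0.16, adjusted p = 0.00361 from limma). It was the one gene of these lists that passed under each of the 16 alternative settings. The study placed TXN, and SESN1 below, in a signature drawn from SALL4 knockdown in H661 cells, so their directions are not independent evidence. The median of the list was -0.13, with summed intensities of 2208 to 2376 in SALL4-sh and 2464 to 2958 in Scr-sh. The gap between these sums came from TXN, which averaged 83.4 in SALL4-sh and 478 in Scr-sh. Without TXN the sums overlapped between the groups.

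Of 21 genes of heme synthesis, transport and breakdown, HEBP1 was lower and none was higher (4.76% called, against 8.57% of all genes). HEBP1, a heme-binding protein of the cytosol, had 59.5, 43.0 and 44.1 in SALL4-sh, against 103, 88.4 and 88.2 in Scr-sh (log2 difference -0.94, standard error 0.16, adjusted p = 0.0234 from limma). It no longer passed without SALL4-sh replicate 2 or 3 or without Scr-sh replicate 1 or 3 (adjusted p up to 0.0842 from limma). The other 20, from the first enzyme of heme synthesis to the biliverdin reductases, did not pass, and the median was -0.01.

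Of 11 genes of iron handling, ACO1 was higher and SLC40A1 lower (18.2% called, against 8.57% of all genes). SLC40A1, which encodes ferroportin, the exporter that releases iron from cells, had 42.3, 43.4 and 37.6 in SALL4-sh, against 98.4, 133 and 77.9 in Scr-sh (log2 difference -1.29, standard error 0.21, adjusted p = 0.0185 from limma). ACO1, the cytosolic aconitase that binds iron-responsive elements of messenger RNA when its iron-sulfur cluster is absent, had 170, 233 and 219 in SALL4-sh, against 89.4, 108 and 116 in Scr-sh (log2 difference 0.99, standard error 0.17, adjusted p = 0.0232 from limma). SLC40A1 no longer passed without any 1 of the SALL4-sh arrays or Scr-sh replicate 1 (adjusted p up to 0.0729 from limma), nor ACO1 without SALL4-sh replicate 2 or 3 or Scr-sh replicate 1 or 3 (up to 0.085 from limma). The other 9 did not pass. The median of the list was -0.26.

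Of 25 genes of glutathione synthesis and use, 3 were lower and none was higher (12% called, against 8.57% of all genes). GPX7, a peroxidase of the endoplasmic reticulum, had 49.4, 41.3 and 30.9 in SALL4-sh, against 157, 112 and 118 in Scr-sh (log2 difference -1.68, standard error 0.22, adjusted p = 0.0113 from limma). GPX8, its close relative in the same compartment, had a log2 difference of -0.91 (adjusted p = 0.0418 from limma), and GSTO1, an omega-class glutathione transferase, of -0.96 (adjusted p = 0.0471 from limma). GPX7 passed without any 1 array, whereas GPX8 passed only without Scr-sh replicate 2 (adjusted p up to 0.128 from limma otherwise) and GSTO1 only without Scr-sh replicate 1 (up to 0.135 from limma otherwise). The median of the list was -0.07.

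Of 17 other antioxidant enzymes, 2 were higher and 2 were lower. PRDX6, a peroxiredoxin that uses glutathione, had 261, 270 and 286 in SALL4-sh, against 549, 449 and 599.9 in Scr-sh (log2 difference -0.96, standard error 0.14, adjusted p = 0.0141 from limma). NQO2, the relative of NQO1 that takes its electrons from dihydronicotinamide riboside, had a log2 difference of -0.97 (adjusted p = 0.0335 from limma). SESN1, a p53-induced sestrin, had 233, 221 and 198 in SALL4-sh, against 68.7, 112 and 53.4 in Scr-sh (log2 difference 1.54, adjusted p = 0.0251 from limma), and SOD2, the mitochondrial superoxide dismutase, had a log2 difference of 0.73 (adjusted p = 0.0398 from limma). SOD2 no longer passed after quantile normalization, median centring or cyclic loess (adjusted p up to 0.0592 from limma), and both SESN1 and SOD2 passed with 1 array left out only where that was Scr-sh replicate 2. PRDX6 no longer passed without any 1 of the SALL4-sh arrays (up to 0.0572 from limma), nor NQO2 without SALL4-sh replicate 2 or 3 or Scr-sh replicate 1 or 2 (up to 0.107 from limma). The share called in this list was 23.5%, against 8.57% of all genes, and its median was -0.05.

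**Figure D3:**
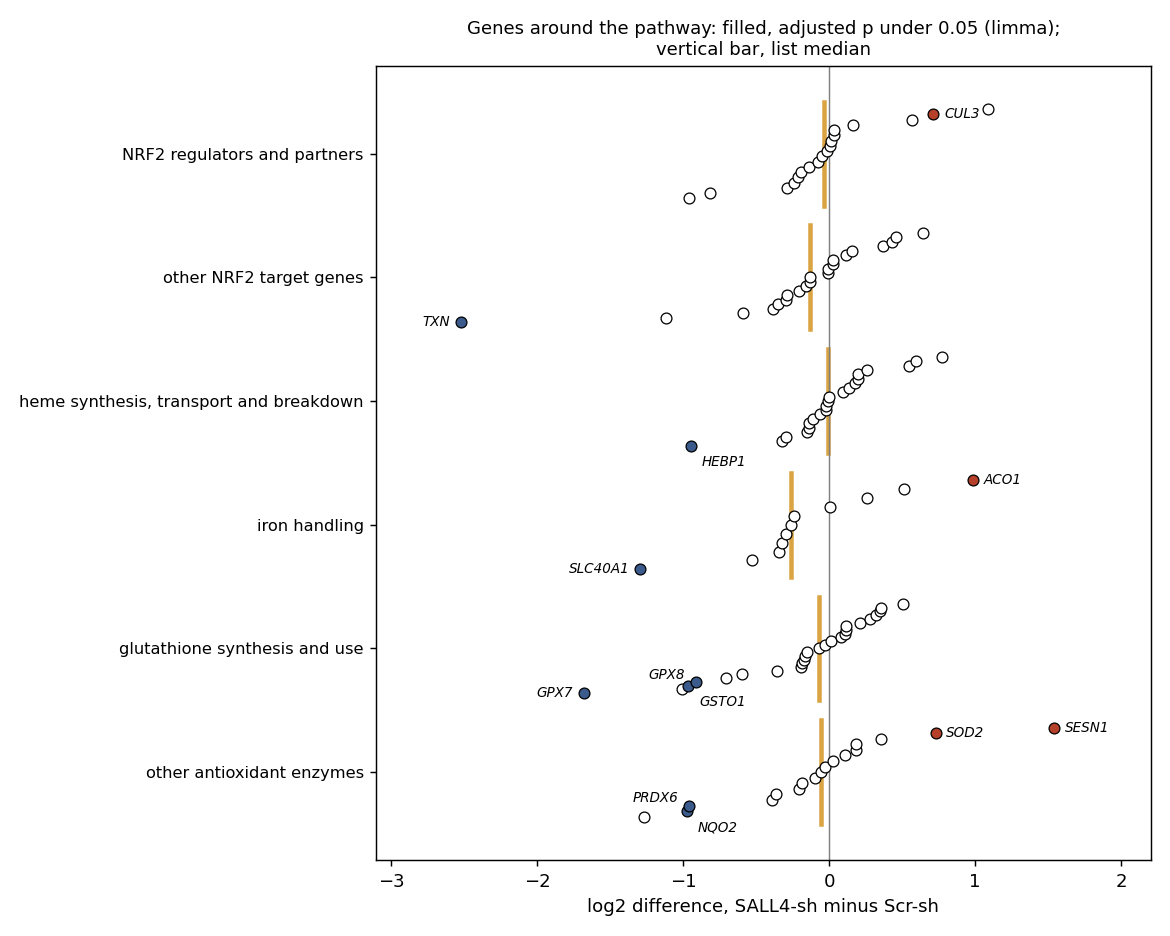
Log2 difference, SALL4-sh minus Scr-sh, of every tested gene of the 6 lists around the pathway (points, 3 arrays per group), with the list median as a vertical bar. Filled points passed an adjusted p of 0.05 from limma and carry their names, red where higher and blue where lower in SALL4-sh. Of the 12 named genes 4 lie right of 0 and 8 left of it, with TXN at -2.52 the lowest, and every median lies between -0.26 and 0.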

How the data were processed

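Expression was measured on 6 Affymetrix arrays of H661 cells (3 SALL4-sh, 3 Scr-sh). The authors deposited normalized intensity values for 32321 probe sets on a linear scale. RMA is named in the submitters' processing notes, without a version. No value was below 8, and 38.8% to 40.4% of the values per array stood at exactly 8, so weak signals cannot be compared. Precision is limited by the number of arrays.

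The log2 of the intensity was taken. Of the probe sets, 19158 had 1 symbol in the platform annotation, 1388 had several and 11775 none. Each of 18404 genes was carried by its brightest probe set (highest mean log2 intensity). Genes never above the floor (3893) were left out, and 14511 genes were fitted with limma 3.58.1 in R 4.3.3 (lmFit, eBayes, Benjamini-Hochberg adjustment over all of them, threshold 0.05, two-sided). The fit was tested on simulated data. The 10 genes and the lists were chosen with earlier results of these data known. Genes named are the 10, SALL4, up to 4 genes per list and direction with the smallest adjusted p, and the 3 genes most like each of the 2 with the largest differences. Cell type markers come from fixed lists, and those named singly were picked after their values were seen. Other genes are said to be outside this rule. Alternatives were other filters, normalizations and variance models, the one-way ANOVA of the paper, the replicate number as a block, averaging over probe sets of 1 gene, and leaving out each array.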

Additional observations from a re-analysis of the deposited data

How the results depend on the processing

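The log2 differences of the 10 genes moved by less than the spread within groups under all 16 alternative settings (160 of 160 values). Most of these values could not have done otherwise. Filters, variance models, the ANOVA, the block and probe set averaging leave the log2 difference of a gene with 1 probe set unchanged. Leaving out 1 of the 3 arrays of a group cannot move it beyond the pooled SD. Only quantile normalization, median centring and cyclic loess could have, and with these HMOX1 ran between 1.31 and 1.33. NFE2L2 ran between -0.61 and -0.54, against -0.51 in the main fit. HMOX2 ran between 0.01 and 0.07, against 0.10. KEAP1 changed sign, from 0.004 to values between -0.05 and -0.02. Calls over all genes moved more: 633 genes were higher and 610 lower, against 218 and 244 when genes at the floor on all arrays were kept, and 94 and 121 with the one-way ANOVA. With 1 array left out, 140 to 854 genes were higher and 228 to 641 lower, the fewest higher without SALL4-sh replicate 3. Without any array other than Scr-sh replicate 2, no more than 269 genes were higher and 349 lower.

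Counts in the lists rested on few genes. With genes at the floor kept, 0 genes of heme, iron and glutathione and 1 other antioxidant enzyme were called, and with the one-way ANOVA 0 in each of these 4 lists. After the 25th percentile filter 2 regulators, 2 other targets and 2 heme genes were called, after the 50th percentile filter 4, 2 and 2, and after quantile normalization 2 heme genes. With 1 array left out, 0 to 2 regulators, 1 to 2 other targets, 0 to 2 heme genes, 0 to 2 iron genes, 1 to 3 glutathione genes and 0 to 3 other antioxidant enzymes were called. The cause was not tested.

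Whether the replicate numbers of the labels pair the samples cannot be told here. Deviations of same-numbered arrays correlated weakly, at 0.10, 0.09 and 0.01, yet 5 of 6 arrays correlated best with their own number. The main fit did not use the numbers. With the replicate block, 431 genes were higher and 466 lower, and 2 regulators and 2 other targets were called. Of the list genes named, SOD2 no longer passed with the block (adjusted p = 0.0735 from limma).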

Other observations

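Some genes outside the naming rule were picked after their values were seen, as relatives of the 10 genes. NFE2L1 and NFE2L3, relatives of NFE2L2, had lower values on every SALL4-sh array than on any Scr-sh array, as NFE2L2 did. NFE2, which lay at or near the floor, and BACH2 overlapped between the groups, as BACH1 did. Over all genes tested, the groups were apart for 27.5% (15.0% higher and 12.5% lower in SALL4-sh). NFE2L1 had 116, 119.5 and 78.3 in SALL4-sh, against 298, 156 and 173 in Scr-sh (log2 difference -0.96, adjusted p = 0.105 from limma). NFE2L3 had 31.1, 43.6 and 52.6 in SALL4-sh, against 56.4, 83.2 and 83.1 in Scr-sh (log2 difference -0.82, adjusted p = 0.103 from limma). Neither passed the threshold. BTRC, which recruits NRF2 to a second ubiquitin ligase, had 86.2, 72.2 and 53.6 in SALL4-sh, against 22.9, 50.1 and 30.3 in Scr-sh (log2 difference 1.09, adjusted p = 0.0952 from limma). Among the transporters of the heme list, FLVCR1, which exports heme, had a log2 difference of 0.77 (adjusted p = 0.0532 from limma), and SLC48A1, which brings heme out of the lysosome, of 0.60 (adjusted p = 0.0771 from limma), and for both the SALL4-sh values lay above all Scr-sh values. TMEM14C, a porphyrin transporter of mitochondria, was lower on every SALL4-sh array than on any Scr-sh array (log2 difference -0.30, adjusted p = 0.253 from limma), and FLVCR2, ABCB6, ABCB10 and SLC25A38 overlapped between the groups. None of these transporters passed. In the whole heme list of 21 genes, the groups were apart for 2 higher and 2 lower genes. That is no larger a share than over all genes, and nothing is read from it.

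The genes whose log2 intensities over the 6 arrays were most like those of HMOX1, among 12056 others above the floor on every array, were PTBP2 (Pearson's r = 0.996), OSBPL11 (r = 0.996) and NFS1 (r = 0.995). Those most like SRXN1 were PHTF2 (r = 0.994), PIP5K1A (r = 0.993) and ABHD3 (r = 0.991). These r describe 6 arrays that fall into the groups of the study, and they carry no test. All 6 genes were higher on each SALL4-sh array than on each Scr-sh array, with log2 differences between 0.47 and 1.36. They were picked for likeness to HMOX1 or SRXN1, which are apart in the same way, so nothing is read from this.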
